A study of Mus musculus with 4 samples.

Results

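Axon guidance genes of the ephrin, Slit-Robo and netrin systems were followed in cerebral cortex of the mouse embryo. Members were the protein-coding genes whose symbols name an Eph receptor, an ephrin, a Slit, a Robo, a Slit-Robo GTPase-activating protein, a netrin or an Unc5 receptor, together with Dcc, Neo1, Dscam, Rgma and Rgmb. The rule used names alone and found 43 genes among the 22619 genes in the deposited tables. All 43 were in both tables, and 42 had enough reads to be tested. Ntn3 and Ntn5 were not analysed here.

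Total RNA from C57BL/6 cortex at E16.5 (mid-to-late gestation) was sequenced in 4 libraries. A group of 2 libraries (replicates 1 and 2) carries the label of a conditional knockout of H2A.Z.2, a variant of histone H2A encoded by H2afv, and 2 libraries (replicates 1 and 4) carry the wild-type label. The labels name neither the Cre line nor the deleted exons, and do not say which embryo each library came from. A p-value here therefore weighs groups only against the spread among the 4 libraries, which may be technical. Reads assigned to genes numbered 16625181 to 17940659 per library.

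Ephrins and Eph receptors are membrane-bound on both sides, so that contact between cells repels or attaches axons and migrating neurons and can signal into either cell. Slits are secreted repellents read by Robo receptors. Netrins attract axons through Dcc and repel them through Unc5 receptors, and repulsive guidance molecules are membrane-anchored ligands of neogenin (Neo1). In the developing forebrain these systems steer corticofugal, callosal and thalamocortical axons and act in neuronal migration.

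H2afv, the targeted gene, was at 128 and 127 CPM (read counts scaled to library size, TMM-normalised) in the cKO-labelled libraries, against 136 and 222 CPM in replicates 1 and 4 of wild type. The label was therefore not separated from wild type replicate 1 by this gene, and the log2 fold change was -0.49 (SE 0.23, edgeR adjusted p = 0.956). Wild type replicate 4 stood apart from the rest, at 53.7 on a first principal component that held 63.6% of the variance, where the others lay between -25.9 and -10.0. It differed by over 2-fold from wild type replicate 1 in 1388 of 16269 genes tested. The labelled tissue was checked with markers of cortical projection neurons. Neurod6 had 692 and 1156 CPM in the cKO-labelled libraries and 872 and 676 CPM in wild type, and Tbr1 had 257 and 379.6 CPM in the cKO-labelled libraries, against 291 and 329 CPM in wild type. Genes of neighbouring regions were present too, in amounts that differed between libraries, and their values are given with those of the members.

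The promoters of Epha4, Ephb6 and Slit2 are shown because these 3 genes, with Rgma, were the members with an unadjusted p under 0.05 between the groups. Each runs from 250 bases before to 50 bases after the start of transcription, as given by RefSeq on GRCm38.p6, at chr1:77515039-77515338 (minus strand), chr6:41605261-41605560 (plus strand) and chr5:47982905-47983204 (plus strand). Capitals mark the GC box (GGGCGG), the CCAAT box (CCAAT) and the TATA box (TATAAA), each searched on both strands.
Epha4: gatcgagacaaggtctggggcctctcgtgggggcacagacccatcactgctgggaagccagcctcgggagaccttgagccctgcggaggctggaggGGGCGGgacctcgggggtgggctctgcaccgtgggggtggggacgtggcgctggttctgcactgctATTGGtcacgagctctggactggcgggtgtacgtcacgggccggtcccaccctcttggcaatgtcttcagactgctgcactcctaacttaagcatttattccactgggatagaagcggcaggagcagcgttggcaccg
Ephb6: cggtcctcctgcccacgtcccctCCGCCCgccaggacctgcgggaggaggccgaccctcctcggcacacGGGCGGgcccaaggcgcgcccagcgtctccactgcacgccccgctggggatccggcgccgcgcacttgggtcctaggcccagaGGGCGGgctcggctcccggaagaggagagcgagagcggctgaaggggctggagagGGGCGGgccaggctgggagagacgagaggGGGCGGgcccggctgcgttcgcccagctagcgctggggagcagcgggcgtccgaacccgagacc
Slit2: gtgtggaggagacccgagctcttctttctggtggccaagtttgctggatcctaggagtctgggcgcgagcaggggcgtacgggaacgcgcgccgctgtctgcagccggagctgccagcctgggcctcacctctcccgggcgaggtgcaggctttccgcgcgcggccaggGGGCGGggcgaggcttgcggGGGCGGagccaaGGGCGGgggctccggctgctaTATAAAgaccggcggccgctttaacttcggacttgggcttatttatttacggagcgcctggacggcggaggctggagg
The Epha4 promoter held 1 GC box, 1 CCAAT box and 17 CpG dinucleotides. That of Ephb6 held 5 GC boxes and 34 CpG dinucleotides, and that of Slit2 held 3 GC boxes, 1 TATA box and 30 CpG dinucleotides. Among 32851 RefSeq promoters of this length, 35.7% held a GC box, 37.4% a CCAAT box and 13.6% a TATA box, and the median number of CpG dinucleotides was 7. These matches describe the letters of each window. The table held promoters for 37 of the 43 members.

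Levels between genes were compared as CPM per kb of annotated exon, averaged over the 4 libraries. Efnb3, a transmembrane ephrin that acts as a midline barrier to corticospinal axons, had the highest level of all members at 85.0 CPM per kb. It was followed by Efnb1 at 54.5, Srgap3 at 34.5, Rgma at 32.6, Efna2 at 31.8 and Efnb2 at 30.5 CPM per kb. Neighbours in that order did not part by more than their spread over libraries from Srgap3 to Efnb2. The lowest members tested were Unc5c at 0.485, Epha2 at 0.437, Dcc at 0.380 and Epha6 at 0.238 CPM per kb. Exon annotation of Slit2 and Unc5c reached 25433 and 19135 bases, which lowers their level per length. Epha1 had 11 and 6 reads in the cKO-labelled libraries and 6 and 4 reads in wild type, and was too low to be tested.

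**Figure D1:**
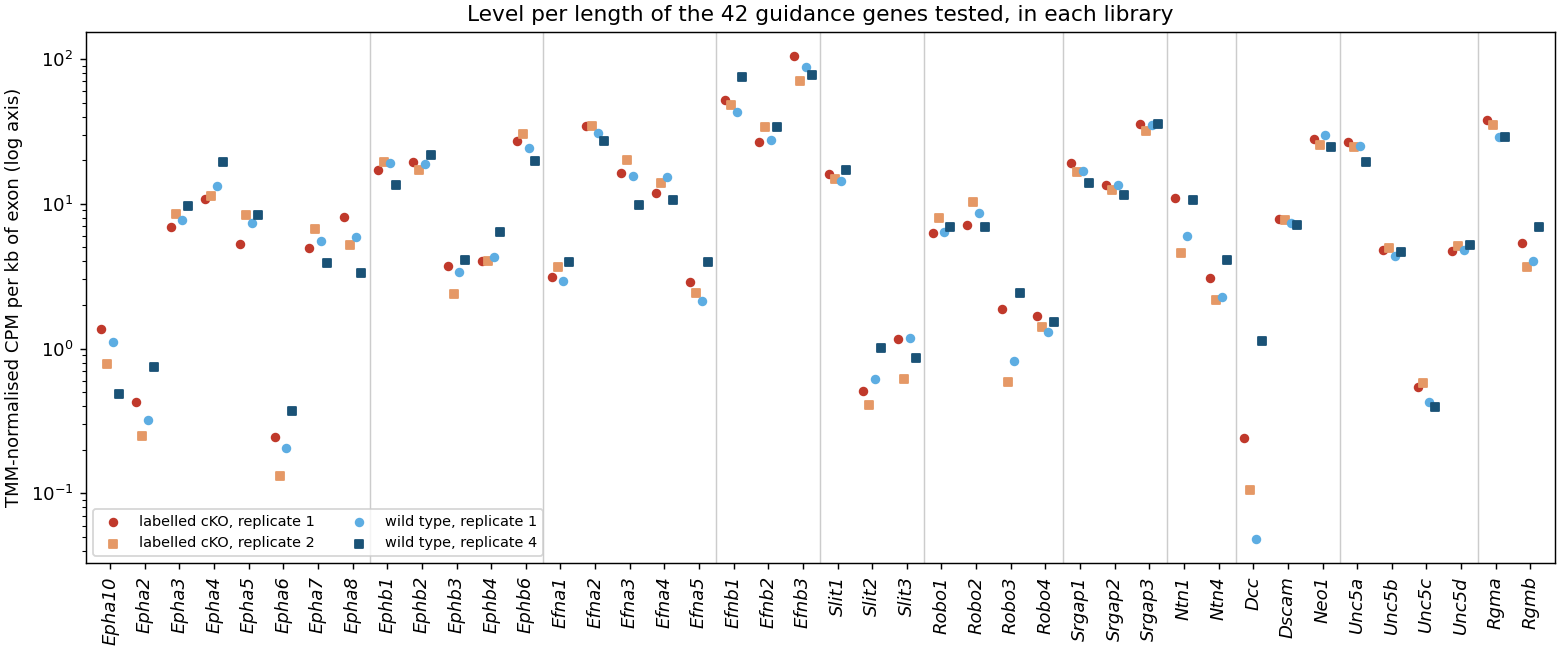
TMM-normalised CPM per kb of exon (log axis) for the 42 members tested, with 1 point per library and grey lines between families in the order of the text. Class B ephrins lie at the top, and Dcc has the widest range, with wild type replicate 4 highest and wild type replicate 1 lowest.

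No guidance gene was called different between the cKO-labelled libraries and wild type. Of the 42 members tested with edgeR, 0 passed an adjusted p of 0.05, as did 0% of all 16269 genes, and DESeq2 also called 0 members. At an unadjusted p under 0.05, 2 members were higher (Ephb6 and Rgma) and 2 were lower (Epha4 and Slit2) in the cKO-labelled libraries. Among all genes tested, 0.676% were higher and 0.996% lower by that rule. Fitted fold changes lay below 0 for 24 members, against 51.9% of all genes, and the members' median was -0.02 on the log2 scale, against -0.01 over all genes tested.

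In most members the wild-type libraries differed from each other by more than the groups did. This held for 32 of 42 members (76.2%), against 71.7% of all genes tested, on log2 CPM. The median absolute difference between the wild-type libraries was 0.34 over the members, against 0.29 over all genes tested. That between the cKO-labelled libraries was 0.25, against 0.18 over all genes tested. Both cKO-labelled libraries lay above both wild-type libraries in 7 members, namely Ephb6, Efna2, Efna3, Dscam, Unc5b, Unc5c and Rgma, where 16% of all genes tested did so. They lay below both in 3 members, Epha4, Ephb4 and Slit2, where 15.7% of all genes did. Against wild type replicate 1 alone, 13 members were higher in both cKO-labelled libraries and 7 were lower in both, where 29.3% and 30.0% of all genes were.

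Among class A Eph receptors, which bind mainly the lipid-anchored class A ephrins, 5 of 8 tested were lower and 3 were higher, and the median of their log2 fold changes was -0.19. Epha4, a receptor that binds ephrins of both classes and is needed for corticospinal axons to respect the midline, was the member of smallest p in the family and its highest per length, at 13.7 CPM per kb. It had 87.4 and 91.6 CPM in the cKO-labelled libraries, against 107 and 156 CPM in replicates 1 and 4 of wild type. The groups did not overlap, although wild type replicate 1 lay nearer to the cKO-labelled libraries than to wild type replicate 4. Its log2 fold change was -0.56 (SE 0.19, 95% confidence interval -1.02 to -0.09, edgeR adjusted p = 0.956), and -0.26 without wild type replicate 4. The summed level of 10 intermediate progenitor markers had the same order over the libraries, with 749 and 775 CPM in the cKO-labelled libraries and 825 and 1179 CPM in wild type, and all 10 had fold changes below 0. Radial glia markers summed to 1591 and 1427 CPM in the cKO-labelled libraries and 1824 and 1846 CPM in wild type. Of these 10 markers, 6 lay below both wild-type libraries in both cKO-labelled ones. The other 4, Fabp7, Slc1a3, Hopx and Tnc, were lowest in wild type replicate 4, where Epha4 was highest. The part of these cells in the members' values was not tested. The gene lies on chromosome 1 from 77367185 to 77515088 on the minus strand (positions of genes are those of the deposited tables, which match GRCm38).

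Epha8 and Epha10 had fold changes above 0. Epha8, an Eph receptor of the developing brain, had 38.0 and 24.3 CPM in the cKO-labelled libraries, against 27.9 and 15.8 CPM in replicates 1 and 4 of wild type (log2 fold change 0.51, SE 0.33, edgeR adjusted p = 0.956). Epha10, whose kinase domain is predicted to be inactive, had 9.84 and 5.60 CPM in the cKO-labelled libraries and 8.02 and 3.49 CPM in wild type (log2 fold change 0.42, SE 0.47, edgeR adjusted p = 0.956). Both genes were lowest in wild type replicate 4 and overlapped between the groups, and leaving that library out gave 0.17 for Epha8 and -0.05 for Epha10.

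The other class A receptors also overlapped between the groups. Epha3 had 60.3 and 74.1 CPM in the cKO-labelled libraries and 67.6 and 84.4 CPM in wild type. Epha5, a receptor for class A ephrins in topographic mapping, had 88.7 and 139 CPM against 123 and 140.3 CPM in wild type, with cKO replicate 1 apart from the other 3 libraries. Epha7 had 48.5 and 66.5 CPM in the cKO-labelled libraries and 54.7 and 38.4 CPM in wild type. The low genes Epha2 and Epha6 were at 0.70 to 3.49 CPM, each highest in wild type replicate 4 and lowest in cKO replicate 2.

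Class B Eph receptors, which bind the transmembrane ephrins, kept close summed levels of 509 and 499 CPM in the cKO-labelled libraries and 502 and 501 CPM in wild type. Ephb6, a receptor without kinase activity, was the highest of the family per length at 25.3 CPM per kb and the member of smallest p. It had 102 and 114 CPM in the cKO-labelled libraries, against 90.9 and 74.7 CPM in replicates 1 and 4 of wild type. The groups did not overlap, and the difference from wild type replicate 1 was smaller than that from wild type replicate 4. Its log2 fold change was 0.39 (SE 0.15, 95% confidence interval 0.03 to 0.75, edgeR adjusted p = 0.956), and 0.26 without wild type replicate 4. The gene lies on chromosome 6 from 41605482 to 41620509 on the plus strand.

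Ephb4, the ephrin-B2 receptor of venous endothelium, had 18.8 and 18.7 CPM in the cKO-labelled libraries and 19.8 and 29.4 CPM in wild type (log2 fold change -0.39, SE 0.23, edgeR adjusted p = 0.956). The groups did not overlap, with wild type replicate 4 apart from the other libraries, and the fold change was -0.072 (log2) without it. The summed level of 10 endothelial markers was 245 and 228 CPM in the cKO-labelled libraries and 237 and 236 CPM in wild type. Ephb1, Ephb2 and Ephb3 overlapped between the groups, with log2 fold changes of 0.16, -0.16 and -0.28. Ephb2, a receptor in callosal and other forebrain tracts, was at 243 and 215 CPM in the cKO-labelled libraries and 236 and 275 CPM in wild type.

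Class A ephrins, the lipid-anchored ligands, were higher in 2 and lower in 3 of 5 members. Efna3 had 39.4 and 49.0 CPM in the cKO-labelled libraries, against 37.6 and 23.9 CPM in replicates 1 and 4 of wild type. The groups did not overlap, with cKO replicate 1 close to wild type replicate 1. Its log2 fold change was 0.52 (SE 0.25, edgeR adjusted p = 0.956) and 0.24 without wild type replicate 4. Efna2, the highest of the class per length, had 73.5 and 73.3 CPM in the cKO-labelled libraries and 66.0 and 57.8 CPM in wild type (log2 fold change 0.25, SE 0.14, edgeR adjusted p = 0.956).

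Efna1, Efna3 and Efna4 lie side by side on chromosome 3, between 89271733 and 89338028 on the minus strand, and did not share one order over the libraries. Efna4 had 18.8 and 22.3 CPM in the cKO-labelled libraries and 24.4 and 17.1 CPM in wild type. Efna1 had 5.70 and 6.71 CPM in the cKO-labelled libraries and 5.37 and 7.21 CPM in wild type. Efna5, an area-restricted cortical ephrin that acts in thalamocortical mapping, had 11.7 and 9.68 CPM in the cKO-labelled libraries and 8.60 and 16.1 CPM in wild type. The wild-type values of Efna5 lay on either side of both cKO-labelled libraries.

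Class B ephrins, transmembrane ligands that also signal into their own cell, overlapped between the groups. Efnb3 had 331 and 224 CPM in the cKO-labelled libraries and 280.1 and 247 CPM in wild type (log2 fold change 0.08, SE 0.20, edgeR adjusted p = 0.969). Efnb1, an X-linked ephrin of cortical progenitors, had 180.3 and 165 CPM in the cKO-labelled libraries and 148 and 259.7 CPM in wild type (log2 fold change -0.24, SE 0.26, edgeR adjusted p = 0.956). The wild-type libraries were the lowest and the highest of the 4 for Efnb1, and its fold change turned to 0.23 (log2) without wild type replicate 4. The summed level of 10 G2 and M phase genes was 474 and 397 CPM in the cKO-labelled libraries and 478 and 1007 CPM in replicates 1 and 4 of wild type, and its part in these values was not tested. Efnb2, the arterial partner of Ephb4 and also a neuronal ephrin, had 182 and 233 CPM in the cKO-labelled libraries and 189 and 231 CPM in wild type.

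Slit2 was the one Slit ligand whose groups did not overlap. This secreted repellent, which keeps forebrain axons from the midline and from ventral territory, had 12.9 and 10.4 CPM in the cKO-labelled libraries, against 15.6 and 25.6 CPM in replicates 1 and 4 of wild type. The groups did not overlap, and wild type replicate 4 was the farthest from the rest. The log2 fold change was -0.82 (SE 0.29, 95% confidence interval -1.52 to -0.12, edgeR adjusted p = 0.956), and -0.41 without wild type replicate 4. The gene lies on chromosome 5 from 47983138 to 48307733 on the plus strand. In bulk tissue fewer cells that express a gene and less RNA per cell cannot be told apart.

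Slit1, the Slit gene with the highest level per length at 15.5 CPM per kb, had 94.6 and 87.1 CPM in the cKO-labelled libraries and 85.2 and 101 CPM in wild type (log2 fold change -0.03, SE 0.14, edgeR adjusted p = 0.982). Slit3 had 7.10 and 3.73 CPM in the cKO-labelled libraries and 7.15 and 5.26 CPM in wild type. Its lowest value was in cKO replicate 2, and cKO replicate 1 matched wild type replicate 1.

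The Robo receptors showed their widest spread in Robo3, which lets commissural axons of the hindbrain and spinal cord cross the midline. Robo3 had 12.8 and 4.02 CPM in the cKO-labelled libraries and 5.65 and 16.7 CPM in wild type (log2 fold change -0.40, SE 0.66, edgeR adjusted p = 0.965). A high and a low library stood in each group. Robo1 and Robo2, the main neuronal receptors for Slits in cortex, had log2 fold changes of 0.09 and 0.16. Robo2, the highest of the 4 per length at 8.19 CPM per kb and of smallest p, had 120.4 and 173 CPM in the cKO-labelled libraries and 145 and 117 CPM in wild type (SE 0.21, edgeR adjusted p = 0.956). Robo4, an endothelial member, had 8.84 and 7.47 CPM in the cKO-labelled libraries and 6.87 and 8.04 CPM in wild type.

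The Slit-Robo GTPase-activating proteins, which shape the membrane of migrating neurons, varied little over the libraries. Srgap3, the highest per length at 34.5 CPM per kb, had 348 and 316 CPM in the cKO-labelled libraries and 345 and 352 CPM in wild type (log2 fold change -0.07, SE 0.12, edgeR adjusted p = 0.965). Srgap1 had 174 and 151 CPM in the cKO-labelled libraries and 153 and 127 CPM in wild type (log2 fold change 0.22, SE 0.15, edgeR adjusted p = 0.956). Srgap2 had 169 and 156 CPM in the cKO-labelled libraries and 170.4 and 144 CPM in wild type. All 3 overlapped between the groups, and their log2 ranges over the 4 libraries were 0.16 for Srgap3, 0.24 for Srgap2 and 0.46 for Srgap1.

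Netrin 1, an attractant for commissural and corticofugal axons, split both groups. Ntn1 had 68.4 and 28.5 CPM in the cKO-labelled libraries and 37.8 and 67.0 CPM in wild type (log2 fold change -0.11, SE 0.44, edgeR adjusted p = 0.980). The libraries labelled cKO differed from each other by 1.26 log2 units and the wild-type libraries by 0.82. Ntn4, a netrin of basement membranes, had 11.4 and 8.05 CPM in the cKO-labelled libraries and 8.48 and 15.3 CPM in wild type (log2 fold change -0.29, SE 0.35, edgeR adjusted p = 0.956). Both netrins were high in the same libraries, cKO replicate 1 and wild type replicate 4.

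Dcc, the receptor through which netrin 1 attracts axons, varied more than any other member tested. It had 57 and 24 reads in the cKO-labelled libraries, against 11 and 250 reads in replicates 1 and 4 of wild type, which is 3.19 and 1.40 CPM against 0.635 and 14.8 CPM. Wild type held both the highest and the lowest library. The fitted value on the log2 scale, -1.74 (SE 1.18, edgeR adjusted p = 0.956), had an interval of -4.59 to 1.11 and turned to 1.85 without wild type replicate 4. Reads of Dcc differed by over 2-fold between the wild-type libraries, as did those of Epha2, Epha10 and Robo3, which makes 4 of 42 members against 8.53% of all genes. Between the cKO-labelled libraries Dcc, Ntn1 and Robo3 did so, 3 members against 3.53% of all genes.

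Neo1, a receptor for netrins and for repulsive guidance molecules and the highest of its class per length at 27.0 CPM per kb, had 245 and 221 CPM in the cKO-labelled libraries and 261 and 213 CPM in wild type (log2 fold change -0.03, SE 0.15, edgeR adjusted p = 0.983). Dscam, an immunoglobulin-family adhesion protein with netrin-binding activity, had 68.7 and 68.0 CPM in the cKO-labelled libraries and 64.4 and 63.1 CPM in wild type (log2 fold change 0.10, SE 0.13). Its groups did not overlap, and its log2 range over the 4 libraries was 0.12.

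Among the Unc5 receptors, which turn netrin signals repulsive, 3 of 4 had fold changes above 0. Unc5c had 10.3 and 11.1 CPM in the cKO-labelled libraries and 8.19 and 7.51 CPM in wild type (log2 fold change 0.45, SE 0.23, edgeR adjusted p = 0.956). Its groups did not overlap, and the log2 fold change stayed at 0.39 to 0.52 when any 1 library was left out. Unc5a, the highest per length at 23.9 CPM per kb, had 111 and 103 CPM in the cKO-labelled libraries and 104 and 81.0 CPM in wild type (log2 fold change 0.21, SE 0.16, edgeR adjusted p = 0.956). The value for Unc5a was 0.051 without wild type replicate 4 and 0.41 without wild type replicate 1. Unc5b, also a vascular receptor, had 29.8 and 31.0 CPM in the cKO-labelled libraries and 27.1 and 29.1 CPM in wild type. Unc5d, a receptor of migrating multipolar neurons, had 43.3 and 47.0 CPM in the cKO-labelled libraries and 44.3 and 47.6 CPM in wild type.

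Rgma kept the same fold change with and without wild type replicate 4. This ligand of neogenin and co-receptor for bone morphogenetic proteins had 211 and 194 CPM in the cKO-labelled libraries, against 160.1 and 159 CPM in replicates 1 and 4 of wild type. The wild-type libraries almost coincided, and both cKO-labelled libraries lay above them. The log2 fold change was 0.34 (SE 0.12, 95% confidence interval 0.05 to 0.63, edgeR adjusted p = 0.956), and it ranged from 0.28 to 0.40 when any 1 library was left out. The gene lies on chromosome 7 from 73375509 to 73419899 on the plus strand. Its relative Rgmb had 41.3 and 28.0 CPM in the cKO-labelled libraries and 30.9 and 52.7 CPM in wild type (log2 fold change -0.27, SE 0.30, edgeR adjusted p = 0.956), with a high and a low library in each group.

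**Figure D2:**
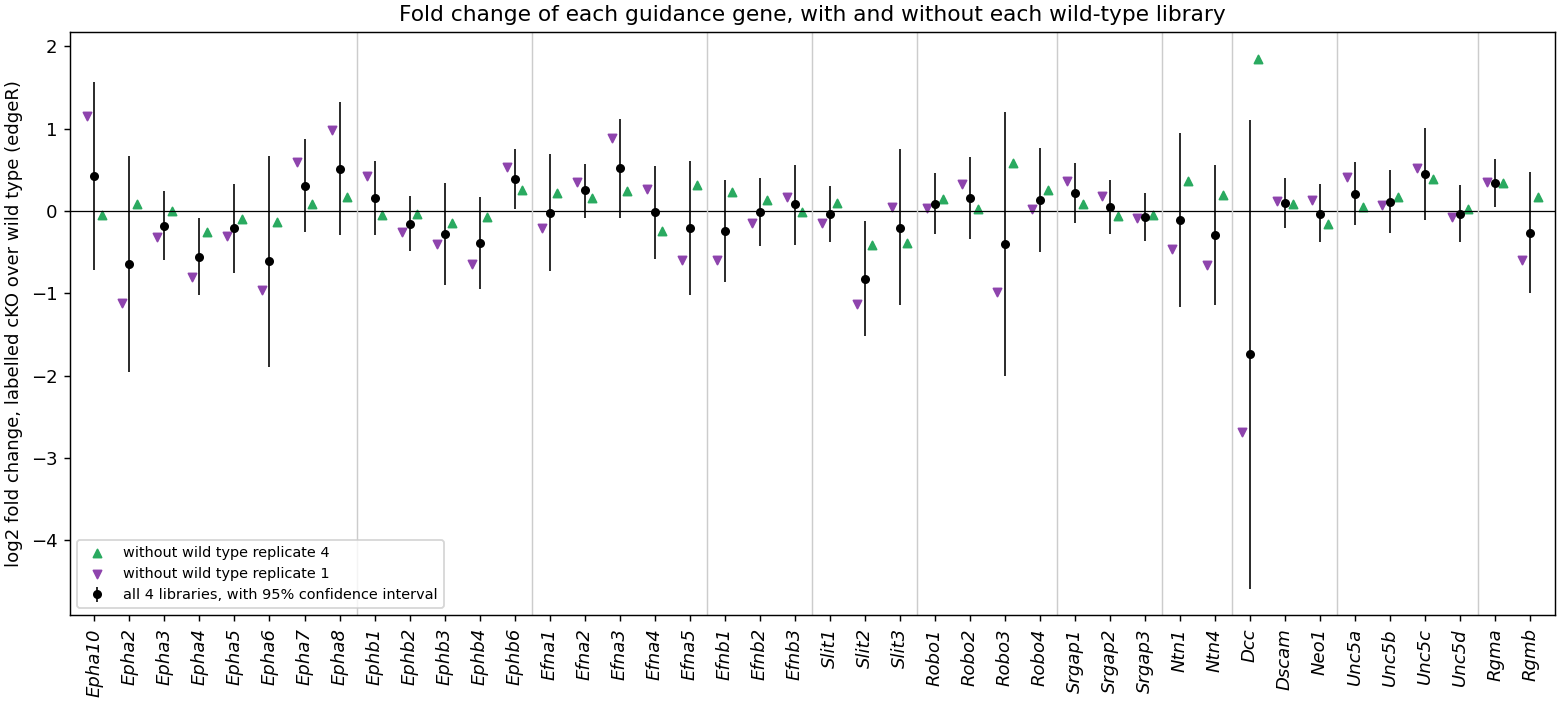
edgeR log2 fold change of each member, labelled cKO over wild type, with its 95% confidence interval (black), without wild type replicate 4 (green) and without wild type replicate 1 (purple). The intervals of Epha4, Ephb6, Slit2 and Rgma leave out 0 before adjustment, and Dcc runs from -2.68 to 1.85 with the wild-type library used.

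Calls depended on which wild-type library stood for wild type. Without wild type replicate 1, edgeR called 8 of 43 members, with Efna3, Epha8 and Ephb6 higher and Epha4, Ephb4, Efnb1, Slit2 and Dcc lower in the cKO-labelled libraries. In that fit 5.34% of all genes were called higher and 5.59% lower. Its adjusted p-values ran from 0.00124 for Dcc to 0.0447 for Ephb4, with the lone wild-type library assumed to vary like the cKO-labelled libraries. Without wild type replicate 4, 0 members were called.

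Several members shared one order over the libraries with some genes of neighbouring regions. Robo3, Rgmb, Ntn4, Epha2, Epha6, Ephb2, Ephb3 and Srgap3 ran from wild type replicate 4 through cKO replicate 1 and wild type replicate 1 down to cKO replicate 2. This order held for 8 of 42 members and for 8.14% of all genes tested, and it was looked for after the values were seen. Steps were small in Srgap3, at 352, 348, 345 and 316 CPM along that order, and Epha6 had only 33, 23, 19 and 12 reads. Epha7, Ephb1 and Robo2 ran in the reverse order, 3 members against 8.03% of all genes. The summed level of 8 hypothalamic markers was 200.1 and 103 CPM in the cKO-labelled libraries and 139 and 218 CPM in replicates 1 and 4 of wild type. That of 10 interneuron and ganglionic eminence markers was 1139 and 714 CPM in the cKO-labelled libraries and 882 and 1414 CPM in wild type. Thalamic markers, 10 in number, summed to 257 and 216 CPM in the cKO-labelled libraries and 246 and 272 CPM in wild type. The hypothalamic and interneuron sums have this order, and the thalamic sum has it only with Cacna2d2 included. The hypothalamic sum rests on few genes, and most thalamic markers did not follow the order. Gbx2 did, whereas Tcf7l2, Lhx9, Olig3, Prox1, Slc17a6, Rora, Calb2, Foxp2 and Cacna2d2 did not. Cacna2d2 made up 119 and 81.8 CPM of the thalamic sum in the cKO-labelled libraries and 82.3 and 90.4 CPM in wild type. It was highest in cKO replicate 1. Without this gene the thalamic sum does not have the order, as wild type replicate 1 then lies above cKO replicate 1. Sst made up 150.3 and 96.1 CPM of the hypothalamic sum in the cKO-labelled libraries and 107 and 92.4 CPM in wild type. Its lowest value was in wild type replicate 4. Nkx2-1 is also in the interneuron list. It had 39.7 and 2.51 CPM in the cKO-labelled libraries and 21.5 and 95.5 CPM in wild type. Together with Sst it made up most of the hypothalamic sum, which is therefore not separate from the interneuron sum. Nkx2-1 and Otp followed the order, whereas Sst, Trh, Pomc, Ghrh, Avp and Sim1 did not. The summed level of 10 striatal markers did not have this order. It was 234.5 and 208 CPM in the cKO-labelled libraries and 234.8 and 189 CPM in wild type. Of these striatal markers, 6 were lowest in wild type replicate 4.

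In cKO replicate 2 the hypothalamic transcription factors Otp and Sim1 and the vasopressin gene Avp had 0 reads. Choroid plexus markers summed to 518 and 62.7 CPM in the cKO-labelled libraries and 44.4 and 18.3 CPM in wild type. Ttr alone made up 466 and 48.3 CPM of that sum in the cKO-labelled libraries and 26.7 and 0.473 CPM in wild type. Of the 8 markers tested, 6 had fold changes above 0 and 2 below 0 (Otx2 and Enpp2). The part of these tissues in the members' values was not tested.

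**Figure D3:**
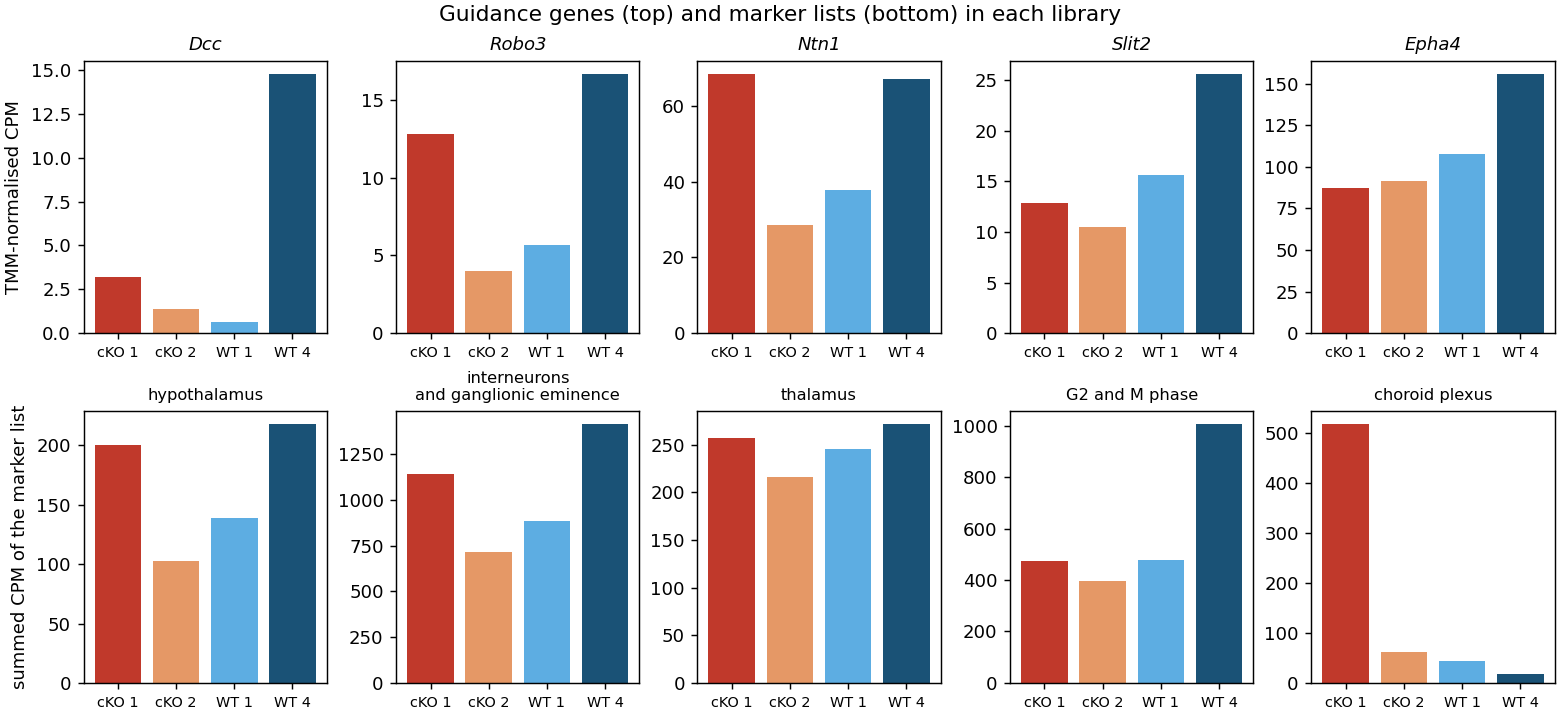
TMM-normalised CPM of 5 members (top) and summed CPM of 5 marker lists (bottom) in each library, on axes that start at 0. Robo3 and Ntn1 are high in cKO replicate 1 and wild type replicate 4, as are the hypothalamic and interneuron sums, which share Nkx2-1. Dcc and the G2 and M phase sum stand out in wild type replicate 4 alone.

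The authors' deposited tables set cKO replicate 1 against wild type replicate 4 and cKO replicate 2 against wild type replicate 1, and share no library. With p under 0.05 and a change past 1 log2 unit, the authors' deposited table of cKO replicate 1 held Epha8 and Epha10 as higher and Dcc and Slit2 as lower. By that rule 4.97% of its genes were higher and 4.64% lower. With the authors' adjusted p in place of p, the same 4 members passed, against 4.51% and 4.21% of genes. The authors' deposited table of cKO replicate 2 held Dcc as higher by the same thresholds and no member as lower, against 1.44% and 3.01% of its genes. With the adjusted p it held no member, against 0.464% and 1.16% of its genes. Dcc thus passed the unadjusted rule in both of the authors' deposited tables, at -2.24 in one and 1.11 in the other (log2). At any fold with adjusted p under 0.05, the authors' deposited table of cKO replicate 1 held 14 members as higher and 17 as lower, where 20% and 25.2% of genes were. That of cKO replicate 2 held 9 as higher and 11 as lower in the authors' deposited values, where 5.04% and 8.26% of genes were. These shares are over all genes listed, including genes too low to be tested here, whereas 42 of 43 members were tested. A p from 1 library against 1 depends on the number of reads, so members and all genes are not compared like with like.

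The direction was shared by both of the authors' deposited tables in 22 members, 10 higher and 12 lower. Among all genes listed, 20.8% were higher in both and 31.5% lower in both. With the authors' adjusted p under 0.05 at any fold in both tables, Efna3, Epha7, Ephb6 and Rgma were higher in both and Epha4, Ephb2 and Slit2 were lower in both. The share of all genes was 2.67% higher in both and 3.66% lower in both. A further 8 members passed in opposite directions (Efnb1, Efnb2, Efnb3, Epha5, Epha10, Neo1, Robo1 and Srgap2), where 3.62% of all genes did. For Efnb3 the authors' deposited tables gave 0.40 in one and -0.36 in the other (log2), with p-values of 1.11e-42 and 1.08e-30. Each such p compares 1 library with 1 library and holds no spread between samples. It also depends on the number of reads, so the shares of all genes listed carry the same limit here.

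**Figure D4:**
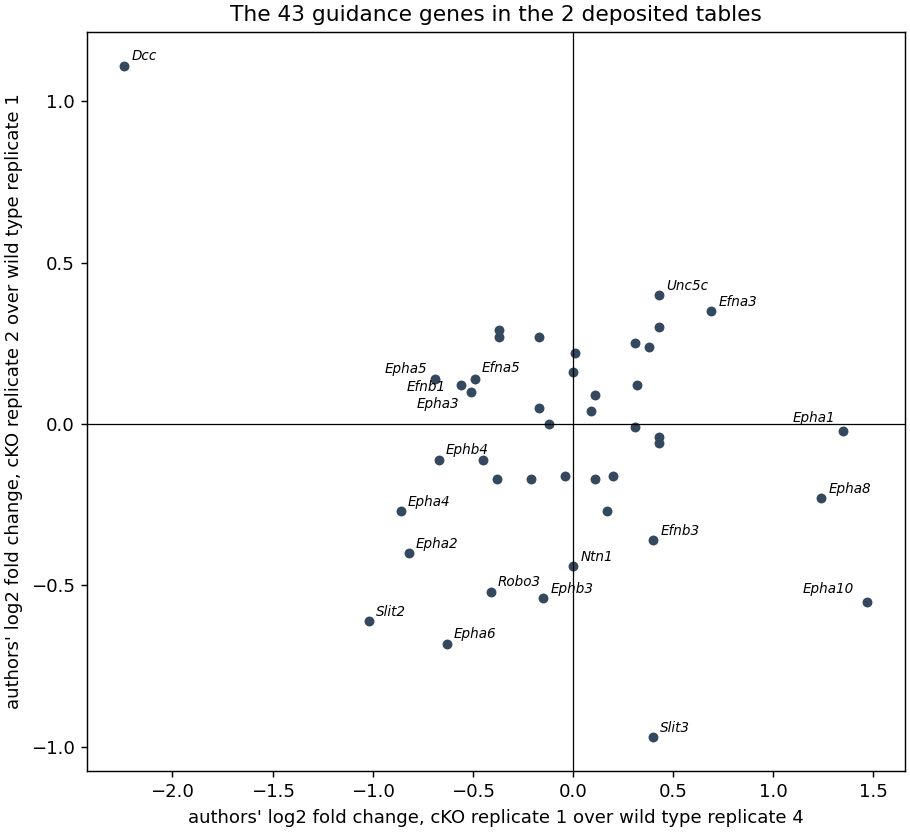
The authors' deposited log2 fold changes of the 43 members, cKO replicate 1 over wild type replicate 4 on the x axis and cKO replicate 2 over wild type replicate 1 on the y axis, 1 point per gene. Slit2, Epha4 and Efna3 lie away from 0 on the same side in both, and Dcc, Epha10 and Epha8 lie on opposite sides.

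Signalling partners were followed in lists of 20 genes per system, all of them tested. Of 20 ephrin partners 8 were higher and 12 lower. Their median was -0.12 (log2), and 0 passed an adjusted p of 0.05. Grb10, an adaptor that binds receptor kinases, had 87.5 and 69.2 CPM in the cKO-labelled libraries and 89.6 and 223 CPM in wild type (log2 fold change -1.0, SE 0.40, edgeR adjusted p = 0.956), with wild type replicate 4 apart. Grip2, a PDZ scaffold related to the ephrin-B partner Grip1, had 117 and 132 CPM in the cKO-labelled libraries and 109 and 47.6 CPM in wild type (log2 fold change 0.67, SE 0.35). Here too wild type replicate 4 was the library apart.

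Of 20 Slit-Robo partners 8 were higher and 12 lower. Their median was -0.01 (log2), and 0 were called. Hs2st1, which sulfates the heparan sulfate that Slit binding needs, had 69.8 and 59.4 CPM in the cKO-labelled libraries and 79.1 and 107 CPM in wild type (log2 fold change -0.52, SE 0.19, edgeR adjusted p = 0.956). Its groups did not overlap. Evl, an actin regulator of the Ena/VASP family, had 405 and 376 CPM in the cKO-labelled libraries and 351 and 324 CPM in wild type (log2 fold change 0.21, SE 0.12).

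Of 20 netrin and Dcc partners 12 were higher and 8 lower. Their median was 0.10 (log2), and 0 were called. Tubb3, a neuronal tubulin reported to bind Dcc, had 3176 and 3242 CPM in the cKO-labelled libraries and 2818 and 2379 CPM in wild type (log2 fold change 0.30, SE 0.13, edgeR adjusted p = 0.956). Dock1, a Rac activator downstream of Dcc, had 15.0 and 10.5 CPM in the cKO-labelled libraries and 15.7 and 25.5 CPM in wild type (log2 fold change -0.69, SE 0.31). At an unadjusted p under 0.05, Grb10 and Hs2st1 were lower and no partner was higher.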

How the data were processed

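RNA-seq of 4 cortex libraries was used. Per the submitters' processing notes, reads were handled with Bowtie2 2.2.3, TopHat2 2.0.12 and HTSeq 0.6.0. The notes name mm9, yet gene positions in the tables match GRCm38. No label or header gives the strand setting, and a gene and its antisense partner cannot be told apart. The authors deposited read counts per gene, CPM-scaled normalised values, fold ratios, log2 fold changes and p-values in 2 tables of 1 library pair each, per the file headers. Columns were assigned by header. The description labels of wild type replicate 4 and cKO replicate 2 name other deposited tables than the headers do. Genes listed in both tables were tested with edgeR 4.0.16 (TMM, minimum count 10, quasi-likelihood test, Benjamini-Hochberg adjustment) in R 4.3.3, and DESeq2 1.42.0 was an alternative. Confidence intervals cover 95%. Log2 CPM used a prior count of 3. The code was checked on simulated data. Every member was named. Full statistics went to the member of each family with the highest level per length or smallest p, and to those past an unadjusted p of 0.05 or the authors' thresholds. Members and lists were chosen with earlier results of these data known.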

Additional observations from a re-analysis of the deposited data

How the results depend on the processing

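Leaving out 1 library at a time moved most values. Genes called by edgeR at an adjusted p of 0.05 numbered 0 to 1849 and members called 0 to 8. The 8 members and 1849 genes were called without wild type replicate 1, 1 gene that is no member was called without cKO replicate 1, and 0 in the other 2 fits. The median log2 fold change of the members ran from -0.026 to 0.09, and that of H2afv from -0.80 to -0.092. Of 42 members 19 kept their sign in all 4 fits, 12 higher and 7 lower. The share over all genes tested was not counted, so this number does not set the members apart. The log2 fold change crossed 0 over these fits, at -2.68 to 1.85 for Dcc, -0.21 to 0.22 for Efna1, -0.24 to 0.27 for Efna4, -0.59 to 0.32 for Efna5, -0.59 to 0.23 for Efnb1 and -0.2 to 0.15 for Efnb2. It ran from -0.23 to 0.33 for Efnb3, -0.048 to 1.15 for Epha10, -1.12 to 0.091 for Epha2, -0.57 to 0.08 for Epha5, -0.053 to 0.43 for Ephb1 and -0.64 to 0.0027 for Ephb3. The span was -0.16 to 0.13 for Neo1, -0.88 to 0.38 for Ntn1, -0.65 to 0.2 for Ntn4, -0.6 to 0.17 for Rgmb, -0.086 to 0.25 for Robo1 and -0.12 to 0.4 for Robo2. It also went from -1.47 to 0.58 for Robo3, -0.15 to 0.1 for Slit1, -0.73 to 0.19 for Slit3, -0.061 to 0.18 for Srgap2 and -0.087 to 0.033 for Unc5d. Others kept their sign but shrank by over 1.5 times in some fit. Among them were Epha3 at -0.33 to -0.0029, Epha4 at -0.8 to -0.26, Epha6 at -1.11 to -0.13 and Epha7 at 0.06 to 0.59. Epha8 ran from 0.15 to 0.98, Ephb2 from -0.26 to -0.039, Ephb4 from -0.64 to -0.072 and Efna3 from 0.24 to 0.89. Slit2 lay between -1.13 and -0.41, Robo4 between 0.0037 and 0.25, Srgap1 between 0.089 and 0.36 and Srgap3 between -0.14 and -0.0014. Unc5a was at 0.051 to 0.41 and Unc5b at 0.065 to 0.17. With DESeq2, other size factors, other low-count filters, the deposited table as a block, or genes of 1 table added as 0, members called stayed at 0. Signs changed there in 3 members near 0, Efna1 at 0.0029 and Efnb2 at 0.0073 with upper quartile factors and Efna4 at 0.0037 with the block. The cause was not tested. With the authors' adjusted p, 0 members passed in the authors' deposited table of cKO replicate 2, where 1 had passed. Against wild type replicate 1 alone, an alternative chosen after seeing the data, 13 members lay above and 7 below. Replicate numbers pair no libraries, since the groups share number 1 alone. With each deposited table as a block, Dcc was at -0.98 and Epha4 at -0.53 (log2), and the smallest edgeR adjusted p of a member was 0.671. With 2 libraries per group, small differences were not detectable, and large ones also went uncalled. The thalamic marker Olig3 at -3.04 and the choroid plexus marker Ttr at 4.24 (log2) each had an edgeR adjusted p of 0.956. Olig3 had 4 and 2 reads in the cKO-labelled libraries and 20 and 30 in wild type. Ttr had 8328 and 828 reads in the cKO-labelled libraries and 463 and 8 in wild type. Neither stands for an even change in a gene with many reads. With 2 libraries per group the absence of calls does not exclude changes of either size. Genes of low count such as Dcc and Epha6 are limited further by depth.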
